A study of Mus musculus with 12 samples.

Results

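Ceruloplasmin (Cp), lipopolysaccharide-binding protein (Lbp), scavenger receptor class A member 5 (Scara5) and selenoprotein P (Selenop) are the 4 genes described here, of 12208 genes listed in the count table. They were taken by gene name, each was found once, and all 4 passed the filter on low counts. The genes were chosen by their measured levels in these same libraries, because several were lower with wild-type and deficient Zeb1 than with vector but kept or raised with mimetic Zeb1. Their levels in the 4 lines are therefore a description with no test, and tests are given only for other genes.

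RNA was measured by QuantSeq 3' tag sequencing in untreated 393P cells, which come from mouse lung adenocarcinoma and are labelled epithelial and non-metastatic. The mimetic line (Zeb1_mimetic), the deficient line (Zeb1_deficient), the WT line (Zeb1_WT) and the vector line (GFP_Vector) had 3 libraries each, labelled as biological replicates, whereas the series' design text speaks of 2 replicates. The title concerns acetylation of ZEB1, a zinc-finger repressor that drives the epithelial-mesenchymal transition, and mimetic and deficient are read here as acetylation-mimetic and acetylation-deficient forms. Each form is represented by 1 line, so the form of Zeb1 and other differences between lines cannot be told apart. A p-value sets the difference between 2 lines against the spread of libraries within lines, estimated over all 12 libraries. It says nothing of how other lines of the same form would vary. The labels describe no deletion of resident Zeb1 in any line.

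The libraries held 24356697 to 27457818 counts in mimetic, 31010854 to 32950740 in deficient, 28402017 to 35773638 in WT and 33301106 to 39029599 in vector. Levels are given as CPM, the count of a gene scaled to a common library size with TMM factors for composition, and a 3' tag count stands for transcripts and not for their length. Zeb1 RNA averaged 228 ± 12 CPM in mimetic, 484 ± 13 in deficient and 244 ± 6.9 in WT, against 31.3 ± 2.8 in vector (SD, n = 3 each). Of 16 epithelial markers 14 were tested, and their summed level was 6030 to 6190 CPM in mimetic, 8610 to 8740 in deficient, 4540 to 4680 in WT and 9910 to 11400 in vector. The mitochondrially encoded share of counts also moved with the line, at 0.482% to 0.504% in mimetic, 0.698% to 0.722% in deficient, 0.396% to 0.426% in WT and 0.814% to 0.998% in vector. Its part in the levels of the 4 genes was not tested.

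Cp, Lbp and Selenop are plasma proteins made mainly by the liver, and other epithelia can make them too. Ceruloplasmin carries copper and oxidises ferrous iron as it leaves cells, lipopolysaccharide-binding protein hands bacterial lipopolysaccharide to CD14 and the TLR4 receptor, and selenoprotein P carries selenium to other tissues. Cp and Lbp are induced in the acute-phase response, in which cytokines of the IL-6 and IL-1 type act through STAT3, NF-kB and C/EBP factors. Scara5 is known as a receptor for ferritin, the iron storage protein, and sits in the plasma membrane. The word secreted thus describes the products of Cp, Lbp and Selenop, and Scara5 joins them by its role in metal handling.

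Promoter sequences from RefSeq (GRCm38.p6), 250 bases before to 50 after an annotated start, were found for 2 of the 4 genes, Cp and Selenop. Only these 2 could be printed, because no entry was found for Lbp and Scara5. Of the 4 genes, these 2 also lay at opposite ends in how near mimetic stood to vector. Capitals mark matches on either strand to CAGGTG, the E-box that ZEB1 binds, and to the motifs of FOXO factors (GTAAACA), C/EBP factors (TTNNGNAA) and the TATA box (TATAAA). Positions are counted from the start site.
Cp, chr3:19956804-19957103, plus strand: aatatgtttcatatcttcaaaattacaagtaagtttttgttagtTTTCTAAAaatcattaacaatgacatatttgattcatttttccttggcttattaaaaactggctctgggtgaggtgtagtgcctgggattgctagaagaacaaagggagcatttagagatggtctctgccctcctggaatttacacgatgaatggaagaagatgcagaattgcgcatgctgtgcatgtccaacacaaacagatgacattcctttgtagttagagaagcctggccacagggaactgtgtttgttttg
Cp, chr3:19956999-19957298, plus strand: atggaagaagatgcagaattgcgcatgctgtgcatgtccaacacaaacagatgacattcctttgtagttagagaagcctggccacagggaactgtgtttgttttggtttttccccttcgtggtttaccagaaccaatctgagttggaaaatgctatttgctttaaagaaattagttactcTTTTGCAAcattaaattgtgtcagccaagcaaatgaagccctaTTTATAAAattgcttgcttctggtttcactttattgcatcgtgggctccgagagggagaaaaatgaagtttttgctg
Selenop, chr15:3270517-3270816, plus strand: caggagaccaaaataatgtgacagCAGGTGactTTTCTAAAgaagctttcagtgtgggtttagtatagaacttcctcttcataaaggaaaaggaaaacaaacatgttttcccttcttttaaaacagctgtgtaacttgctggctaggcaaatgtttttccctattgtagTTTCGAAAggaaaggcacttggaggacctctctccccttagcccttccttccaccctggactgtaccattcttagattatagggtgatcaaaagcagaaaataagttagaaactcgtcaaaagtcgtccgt
Selenop, chr15:3270727-3271026, plus strand: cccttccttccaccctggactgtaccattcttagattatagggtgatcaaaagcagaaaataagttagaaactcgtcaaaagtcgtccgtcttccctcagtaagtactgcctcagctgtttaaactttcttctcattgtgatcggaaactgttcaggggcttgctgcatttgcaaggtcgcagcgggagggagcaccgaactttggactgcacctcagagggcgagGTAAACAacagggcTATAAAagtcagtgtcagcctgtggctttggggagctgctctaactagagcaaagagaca

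In the upstream Selenop window CAGGTG began at -226, and 20.2% of 32817 windows of this length hold it on either strand. Neither Cp window holds it. The related E-box CAGGTA, in 12% of windows, has no match in the windows printed. The downstream Selenop window holds GTAAACA at -24 and TATAAA at -10, which 3.65% and 13.6% of all windows hold. The downstream Cp window holds TATAAA at -25, beside an overlapping match on the other strand at -27, and the C/EBP motif at -70, which 40.7% of windows hold. Further C/EBP matches lie at -206 in the upstream Cp window and at -217 and -81 in the upstream Selenop window. The motifs of STAT3 (TTCNNNGAA, in 8.29% of windows), the hypoxia response (ACGTG, 19.6%) and HNF4 (CAAAGTCCA, 0.475%) have no match in these windows. A match is a run of letters and says nothing of binding. GC content was 38.3% and 40% for the Cp windows and 40.7% and 48.3% for the printed Selenop windows, against a median of 52.7% over all windows. A further Selenop window, chr15:3270561-3270860, overlaps both printed ones and is not printed (GC 41.3%). Its C/EBP match, at -125 from its own start, is the site at -81 of the upstream window.

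Cp (ENSMUSG00000003617) lies on chromosome 3, 19957054 to 20009145, plus strand, in GRCm38. It had 60.9, 68.7 and 65.1 CPM in the mimetic libraries, 23.6, 21.7 and 18.8 CPM in deficient, 33.3, 30.5 and 29.1 CPM in WT, and 54.3, 57.8 and 53.8 CPM in vector. The order of the lines was mimetic, vector, WT and deficient, and no neighbouring lines in that order overlapped. The mimetic mean was 117% of the vector mean, a log2 fold change of 0.23 (SE 0.07). The deficient mean was 38.7% of vector and the WT mean 55.9%. Deficient was the lowest line, with a log2 difference from WT of -0.53 (SE 0.08).

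Lbp (ENSMUSG00000016024) lies on chromosome 2, 158306493 to 158332852, plus strand. It had 10.5, 10.5 and 11.1 CPM in mimetic, 2.14, 2.64 and 2.73 CPM in deficient, 3.64, 5.06 and 4.2 CPM in WT, and 8.47, 6.73 and 6.63 CPM in vector. The order was again mimetic, vector, WT and deficient, with no overlap between neighbours. The mimetic mean was 147% of vector, a log2 fold change of 0.56 (SE 0.13), and the deficient and WT means were 34.4% and 59.1% of vector. Mimetic was 4.28-fold above deficient. These levels rest on 71 to 313 counts a library.

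Scara5 (ENSMUSG00000022032) lies on chromosome 14, 65666403 to 65764826, plus strand. It had 10.1, 9.63 and 10.9 CPM in mimetic, 2.99, 2.39 and 2.12 CPM in deficient, 2.57, 2.86 and 3.06 CPM in WT, and 4.51, 6.15 and 5.12 CPM in vector. Mimetic was the highest line and vector came next, and deficient and WT overlapped (log2 difference -0.18, SE 0.17). Of the 4 genes it had the largest ratio of mimetic to vector, 194%, a log2 fold change of 0.96 (SE 0.14). The deficient and WT means were 47.5% and 53.8% of vector.

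Selenop (ENSMUSG00000064373) lies on chromosome 15, 3268547 to 3280508, plus strand. It had 12, 11.2 and 12 CPM in mimetic, 1.81, 2.14 and 1.38 CPM in deficient, 2.32, 2.46 and 2.17 CPM in WT, and 168, 175 and 183 CPM in vector. Here the order was vector, mimetic, WT and deficient, and the description of a gene kept or raised with mimetic did not hold for it. The mimetic mean was 6.71% of vector, a log2 fold change of -3.90 (SE 0.08), while the deficient and WT means were 1.01% and 1.32%. Mimetic was still 6.58-fold above deficient and 5.04-fold above WT. The highest deficient library lay just below the lowest WT library. Among all tested genes, the Selenop level stood at percentile 28.7 in mimetic, 12.1 in deficient, 15.3 in WT and 89.6 in vector.

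**Figure D1:**
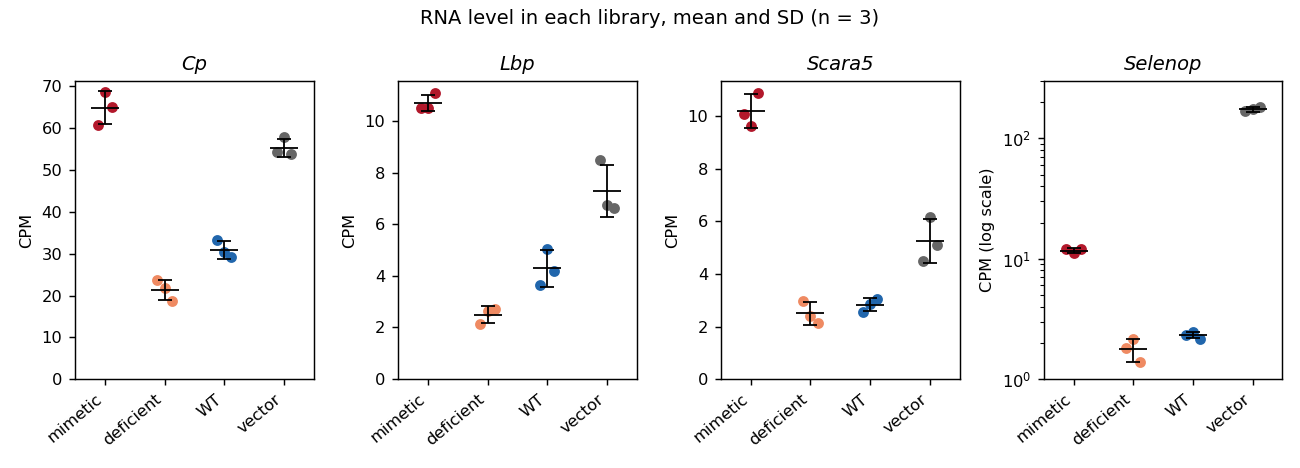
RNA level (CPM) of Cp, Lbp, Scara5 and Selenop in each library of the mimetic, deficient, WT and vector lines; points are libraries and bars are mean and SD (n = 3), with a log axis for Selenop alone. For Cp, Lbp and Scara5 the mimetic libraries lie above the vector libraries, whereas for Selenop they lie at 11.2 to 12 CPM against 168 to 183 CPM in vector.

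The 4 genes shared a rank order of mean level among the 3 Zeb1 lines, mimetic above WT and WT above deficient, and differed in where vector fell. Relative to deficient, mimetic was higher by log2 1.60 (SE 0.08) for Cp, 2.10 (SE 0.15) for Lbp, 2.03 (SE 0.16) for Scara5 and 2.72 (SE 0.11) for Selenop. Relative to WT, mimetic was higher by log2 1.07 (SE 0.08) for Cp, 1.31 (SE 0.14) for Lbp, 1.85 (SE 0.15) for Scara5 and 2.33 (SE 0.11) for Selenop. Of the 4 genes, Selenop had the largest difference in both comparisons of mimetic with another Zeb1 form.

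Libraries of the lines compared did not overlap for any of the 4 genes in 5 of the 6 comparisons, and in deficient against WT they did not overlap for 3. Such separation was common, since it held for 62.6% of tested genes in mimetic against vector, 60.1% in deficient against vector and 68% in WT against vector. It held for 41.3% of tested genes in mimetic against deficient, 56.7% in mimetic against WT and 61.6% in deficient against WT.

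The pattern that chose the genes was rarer. Of 12027 tested genes, 192 (1.6%) were called lower than vector in both WT and deficient and higher in mimetic than in both, at a Benjamini-Hochberg adjusted p under 0.05 in edgeR's quasi-likelihood test, and 55 (0.457%) were so with both falls at least 2-fold. Of the 192, 88 were not called lower in mimetic than in vector, and 10 were called higher there (0.732% and 0.0831% of all tested genes). Of the 55, 7 (0.0582% of all tested genes) were not called lower in mimetic. Nothing about the 4 genes is read from these counts, because the same comparisons chose them.

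**Figure D2:**
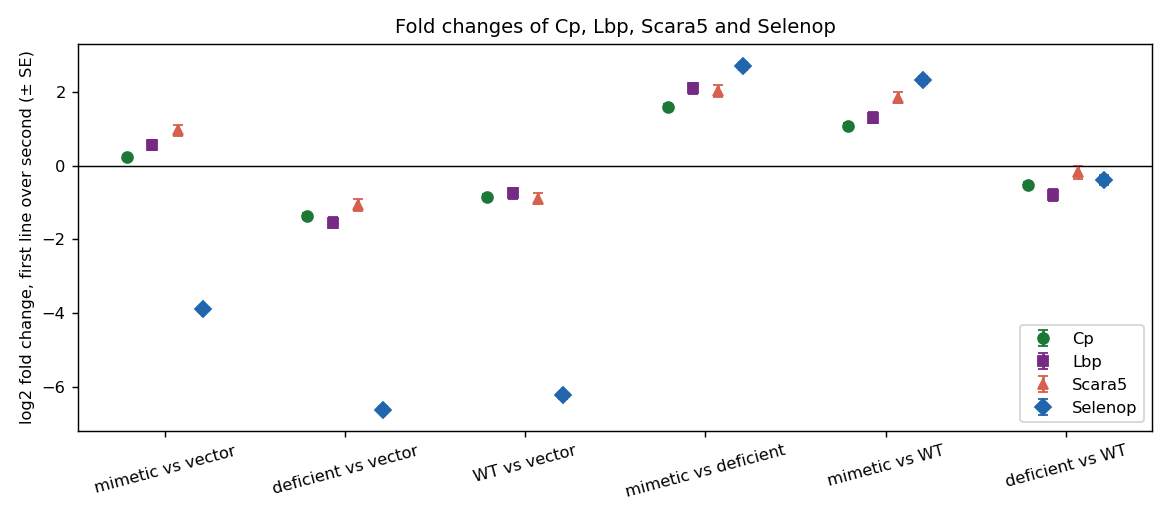
Log2 fold change, first line over second, of Cp, Lbp, Scara5 and Selenop in the 6 comparisons, with bars for the standard error of the fit over all 12 libraries. In mimetic against vector Cp, Lbp and Scara5 lie between 0.23 and 0.96 and Selenop at -3.90.

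None of the 7 nearest listed genes that do not overlap the 4 genes had the order of lines of the gene beside it. Ralgapb, 77 kb above Lbp, had 233 CPM in mimetic, 212 in deficient, 268 in WT and 222 in vector, and D630003M21Rik, 77.3 kb below Lbp, had 1.45, 0.811, 0.153 and 0.106 CPM in the same lines. Pbk, 41 kb above Scara5, had 48.1, 47.3, 42.7 and 46.8 CPM, and Nuggc, 17.9 kb below it, had 0.383, 0.31, 0.416 and 0.379 CPM. 1700064H15Rik, 328 kb below Cp, had 12.8, 12.4, 7.3 and 7.28 CPM. Hltf, 48.7 kb above Cp, fell in all 3 Zeb1 lines against vector, by 0.53, 0.48 and 0.39 on the log2 scale in mimetic, deficient and WT (adjusted p = 3.34e-07, 1.32e-06 and 1.47e-05). Ghr, the growth hormone receptor gene 37.3 kb above Selenop, rose in all 3, at 4.03 CPM in mimetic, 2.01 in deficient and 3.62 in WT, against 0.895 in vector (adjusted p = 2.54e-08, 0.000151 and 5.35e-08).

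Overlapping genes limit the counts of Cp and Selenop, since the strand used in counting is not given in the labels. Hps3, on the opposite strand, overlaps the 3' end of Cp and had 17.1 CPM in mimetic, 14.8 in deficient, 16.1 in WT and 17 in vector. That is the order of lines of Cp in a narrow range, with no call in any of the 6 comparisons (adjusted p = 0.0616 to 0.96). Ccdc152, also on the opposite strand, overlaps Selenop and was not analysed here. The annotation lists 16 transcripts for Cp, 5 for Lbp, 3 for Scara5 and 7 for Selenop, and gene counts do not separate them.

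Genes with the most similar levels were ranked by Pearson correlation of log2 CPM over the 12 libraries among 9744 named genes of at least 5 CPM in their highest line. The libraries form 4 lines, so the correlations mostly restate line means, and no p is given. Lbp was the fourth gene for Cp (r = 0.950), after Lurap1l (0.968), Adh7 (0.962) and Slit2 (0.956), and Crebrf came next (0.939). For Lbp the list was Cp (0.950), Cebpa (0.939), Kctd17 (0.939), Crebrf (0.933) and Pax9 (0.929). For Scara5 it was Timp2 (0.964), Ivd (0.926), Cp (0.919), Anp32e (0.906) and Lbp (0.904). Selenop had r of 0.75 to Cp, 0.64 to Lbp and 0.54 to Scara5, and its list was Dhx40 (0.985), Ifitm1 (0.985), Htra3 (0.983), Car5b (0.980) and Foxred2 (0.980). Ifitm1, an interferon-induced membrane protein, had 4.39 CPM in mimetic, 0.669 in deficient, 0.966 in WT and 27.6 in vector, the same order of lines as Selenop.

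The other acute-phase plasma proteins did not share 1 pattern. Of 50 listed by function, 11 stand in the count table and were tested, so the counts here speak for these 11 alone. In mimetic against vector 3 rose and 4 fell, where 59.5% of all tested genes were called (28.6% higher and 30.9% lower). In deficient against vector 0 rose and 5 fell (28.4% of all genes higher and 29.8% lower, 58.2% in all), and in WT against vector 1 rose and 5 fell (31% higher and 33.6% lower, 64.6% in all). The median log2 fold changes of the list were -0.10, -0.32 and -0.77, against 0, 0 and -0.01 over all tested genes.

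Clusterin (Clu), an extracellular chaperone, fell in each Zeb1 line. It had 391 ± 7.1 CPM in mimetic, 523 ± 20 in deficient and 140 ± 4.1 in WT, against 663 ± 25 in vector (SD, n = 3 each; edgeR adjusted p = 2.76e-12, 5.63e-07 and 1.1e-19). Its lowest line was WT, not deficient. The retinol carrier Rbp4 had 115 ± 4.3 CPM in mimetic, 70.7 ± 2.8 in deficient, 72.5 ± 3.2 in WT and 74 ± 9.5 in vector, and was higher in mimetic than in deficient, WT and vector (adjusted p = 1.3e-07, 1.56e-07 and 1.1e-07). Itih2, a chain of the inter-alpha-trypsin inhibitor that binds hyaluronan, had 4.36 ± 1.1 CPM in mimetic, 1.07 ± 0.26 in deficient, 0.486 ± 0.023 in WT and 1.32 ± 0.33 in vector. It rose in mimetic and fell in WT against vector (adjusted p = 9.34e-06 and 0.000687), and deficient was not called (adjusted p = 0.385). The complement protease gene C1ra rose in WT, at 12.2 ± 0.62 CPM against 6.76 ± 0.43 in vector (adjusted p = 3.38e-05), and fell in deficient, at 4.54 ± 0.28 CPM (adjusted p = 0.00365). Orm3 fell in mimetic, at 0.162 ± 0.15 CPM against 1.39 ± 0.29 in vector (adjusted p = 2.63e-05). Cfb fell there too, at 0.34 ± 0.09 CPM against 0.9 ± 0.15 (adjusted p = 0.0106). So did C3, at 0.418 ± 0.17 CPM against 1.04 ± 0.22 (adjusted p = 0.0219). With Clu they were the 4 genes of the list that fell in mimetic, while 3 rose. These falls were not particular to mimetic. Orm3 also fell in deficient, to 0.112 CPM (edgeR adjusted p = 5.84e-06), and was not called in WT (adjusted p = 0.0907). Cfb fell in deficient and WT, to 0.332 and 0.184 CPM (adjusted p = 0.00785 and 0.000369). C3 fell in WT, to 0.159 CPM (adjusted p = 0.000217), and was not called in deficient (adjusted p = 0.528). Orm3, Cfb and C3 were low throughout, with means of at most 1.39 CPM in any line.

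Receptors and signalling genes of the IL-6 and IL-1 families were mostly present, with 25 of 30 tested. Against vector, 10 rose and 7 fell in mimetic, 10 rose and 7 fell in deficient, and 8 rose and 11 fell in WT, where 59.5%, 58.2% and 64.6% of all tested genes were called. Osmr and Lifr, the receptors for oncostatin M and LIF that signal with the shared chain Il6st, rose in each Zeb1 line and were highest in mimetic. Osmr had 8.86 ± 1.3 CPM in mimetic, 4.32 ± 0.29 in deficient and 1.67 ± 0.088 in WT, against 0.706 ± 0.13 in vector, and Lifr had 33.7 ± 0.75, 13.5 ± 1.1 and 15.3 ± 1.3 CPM against 10.7 ± 1.7. Osmr was higher in mimetic than in deficient by log2 1.04 (SE 0.15, adjusted p = 2.38e-05), and Lifr by 1.32 (SE 0.10, adjusted p = 3.84e-09). Il6st itself had 188 ± 3.1 CPM in mimetic, 158 ± 4.9 in deficient, 155 ± 6.1 in WT and 119 ± 7.9 in vector. The gene of the ligand, Lif, had 13.2 ± 1.2, 28.8 ± 3, 14.6 ± 1.8 and 30.7 ± 0.14 CPM in these lines. It was lower in mimetic than in deficient and vector (edgeR adjusted p = 2.14e-08 and 1.12e-09). Lif was lower in WT than in vector too (adjusted p = 4.26e-09), and mimetic and WT were not called apart (adjusted p = 0.254). Deficient was not called against vector for Lif (adjusted p = 0.385). Jak2 had 283 ± 11, 363 ± 18, 427 ± 11 and 259 ± 12 CPM, and was lower in mimetic than in deficient and WT (adjusted p = 5.06e-06 and 2.26e-09).

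The IL-1 receptor Il1r1 fell in all 3 Zeb1 lines, to 61.6 ± 0.84 CPM in mimetic, 54.3 ± 1 in deficient and 59 ± 1.5 in WT, against 179 ± 4.1 in vector (adjusted p = 1.54e-16, 2.93e-17 and 3.06e-17). Stat3, the transcription factor downstream of IL-6 receptors, had 61.4 ± 1.6, 66.3 ± 1.4 and 57 ± 0.89 CPM in the same lines against 84.2 ± 1.4 in vector, and fell in each. The factor gene Cebpa had the order of lines of Cp and Lbp, with 15.5 ± 0.35 CPM in mimetic, 9.2 ± 1.1 in deficient, 9.7 ± 0.62 in WT and 14.3 ± 1.5 in vector. It fell in deficient and WT against vector (adjusted p = 3.04e-05 and 0.000105), was not called in mimetic (adjusted p = 0.353), and was higher in mimetic than in deficient and WT (adjusted p = 1.87e-05 and 3.43e-05). Deficient and WT were not called apart for Cebpa (adjusted p = 0.562). The order was not particular to Cebpa, since the ferritin light chain gene Ftl1, given below, had it too. Cebpb, Cebpd and Cebpg, singled out after their values were seen, had other orders of lines. In mimetic, deficient, WT and vector, Cebpb had 8.76, 10, 6.4 and 6.29 CPM. In the same lines Cebpd had 2.32, 1.22, 0.915 and 0.823 CPM, and Cebpg had 139, 148, 125 and 172 CPM.

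Of 33 genes of lipopolysaccharide recognition and Toll-like receptor signalling, the route that Lbp feeds, 23 were tested. Counting mimetic, deficient and WT in turn against vector, 6, 7 and 6 rose and 7, 9 and 12 fell, while 59.5%, 58.2% and 64.6% of all tested genes were called. Cd14, the coreceptor that takes lipopolysaccharide from Lbp, fell in all 3 Zeb1 lines, whereas Lbp was highest in mimetic. It had 18.1 ± 0.59 CPM in mimetic, 21.3 ± 0.21 in deficient and 24.9 ± 0.95 in WT, against 50.9 ± 7.5 in vector (adjusted p = 7.14e-12, 9.39e-11 and 1.08e-09). Tlr4, the signalling receptor, had 40.4 ± 3.8, 31.1 ± 0.63 and 48.2 ± 1.6 CPM in these lines and 42.6 ± 2.6 in vector, and was higher in mimetic than in deficient (adjusted p = 0.000444). Sigirr, an inhibitor of this receptor family, fell to 8.04 ± 0.22 CPM in mimetic, 10.8 ± 1.1 in deficient and 7.63 ± 0.81 in WT, against 42.2 ± 3.8 in vector. Tlr2, which recognises bacterial lipoproteins, fell in WT, to 0.249 ± 0.12 CPM against 3.08 ± 0.37 in vector, and in deficient (adjusted p = 5.63e-08 and 0.0173), and was not called in mimetic (adjusted p = 0.376). It was higher in mimetic (2.52 ± 0.19 CPM) and deficient (1.75 ± 0.83 CPM) than in WT (adjusted p = 9.47e-07 and 7.45e-06).

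Iron genes, which bear on Cp and Scara5, were tested for 31 of 48. Against vector 13 rose and 5 fell in mimetic, 10 rose and 10 fell in deficient, and 12 rose and 10 fell in WT, beside calls for 59.5%, 58.2% and 64.6% of all tested genes. Both ferritin chains were higher in mimetic than in deficient, but the heavy chain Fth1 had its highest mean in WT, where Scara5 was low. Fth1 had 878 ± 8 CPM in mimetic, 711 ± 22 in deficient, 932 ± 15 in WT and 810 ± 44 in vector, and mimetic differed from deficient by log2 0.30 (SE 0.04, adjusted p = 1.36e-05) and was not called apart from WT (adjusted p = 0.0989). The light chain Ftl1 had 81.6 ± 8.2, 54.5 ± 4.4, 61.3 ± 1.8 and 72.1 ± 9.7 CPM in the same lines, and mimetic differed from deficient by log2 0.58 (SE 0.08, adjusted p = 2.17e-05). The transferrin receptor Tfrc had 174 ± 5.7 CPM in mimetic, 146 ± 10 in deficient, 121 ± 3.7 in WT and 119 ± 7.5 in vector, and was higher in mimetic than in WT (adjusted p = 1.41e-07). The metalloreductase Steap1 rose in all 3 Zeb1 lines, to 49.6 ± 2.5, 58.6 ± 1.3 and 48.4 ± 1.8 CPM in mimetic, deficient and WT against 26 ± 0.92 in vector. The iron exporter ferroportin, Slc40a1, which works with ceruloplasmin, was singled out after its values were seen. It had 1.59 ± 0.65 CPM in mimetic, 1.89 ± 0.37 in deficient and 0.66 ± 0.15 in WT, against 2.45 ± 0.57 in vector, and of the 3 lines WT alone was called against vector (adjusted p = 3.19e-05).

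Copper genes were tested for 22 of 31, with 5 higher and 7 lower in mimetic than in vector, 6 and 5 in deficient, and 5 and 8 in WT (all genes: 59.5%, 58.2% and 64.6% called). Pam, a copper enzyme of peptide processing, fell to 300 ± 9.2 CPM in mimetic, 260 ± 4.1 in deficient and 327 ± 0.98 in WT, against 392 ± 9.6 in vector. The lysyl oxidase gene Loxl2 fell in WT, to 15.7 ± 0.91 CPM against 33.9 ± 1.3 in vector (adjusted p = 3.91e-11), and was higher in mimetic and deficient than in WT, at 33.9 ± 1.2 and 34.8 ± 2.2 CPM (adjusted p = 2.05e-10 and 4.7e-11). The largest change in the list against vector was that of Cd109, at 9.76 ± 0.99 CPM in mimetic against 0.716 ± 0.22 in vector. Cd109 is a membrane-anchored protein of the alpha-2-macroglobulin family and is not known as a copper protein. It also rose in deficient and WT, to 3.64 ± 0.42 and 8.89 ± 0.45 CPM (edgeR adjusted p = 3.35e-09 and 5.06e-13). Mimetic and WT were not called apart for it (adjusted p = 0.441).

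Among zinc transporters and metallothioneins 18 of 27 were tested, with 7 higher and 5 lower in mimetic than in vector, 4 and 3 in deficient, and 4 and 7 in WT (all genes: 59.5%, 58.2% and 64.6% called). Mt1, a metal-binding metallothionein, fell in each Zeb1 line and was highest of the 3 in mimetic. It had 67.6 ± 6.5 CPM in mimetic, 54.1 ± 3.3 in deficient and 48 ± 2.3 in WT, against 136 ± 7.6 in vector, and mimetic exceeded deficient by log2 0.32 (SE 0.07, adjusted p = 0.00109) and WT by 0.50 (SE 0.07, adjusted p = 5.57e-06).

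Of 30 scavenger receptors and proteins with related domains, the class of Scara5, 20 were tested. Mimetic had 5 higher and 6 lower than vector, deficient 8 and 6, and WT 6 and 11 (all genes: 59.5%, 58.2% and 64.6% called). Lgals3bp, a secreted protein with a scavenger receptor domain, fell to 16.3 ± 1.5 CPM in mimetic, 16.6 ± 2.3 in deficient and 7.39 ± 0.8 in WT, against 72.7 ± 0.39 in vector. Megf10, an engulfment receptor, was lowest in mimetic, at 12.7 ± 1.1 CPM, with 45 ± 2.8 in deficient, 28.5 ± 2.6 in WT and 69.4 ± 4.6 in vector (adjusted p = 2.41e-12 for mimetic against deficient). Scarb1, the receptor for high-density lipoprotein, rose to 41.3 ± 2 CPM in mimetic, 43.9 ± 1 in deficient and 35.7 ± 1.8 in WT, against 21.3 ± 0.58 in vector.

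**Figure D3:**
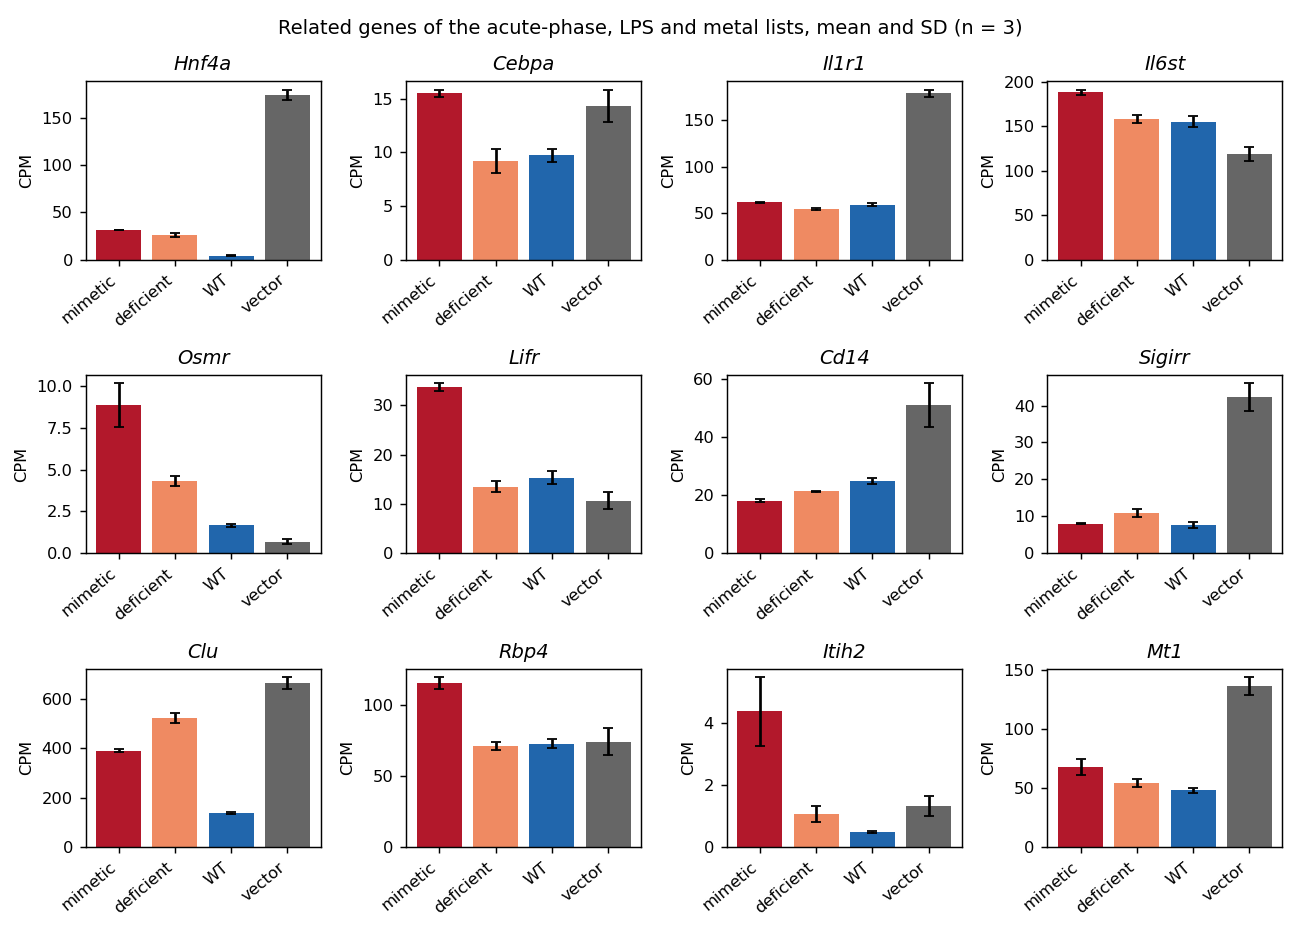
Mean RNA level (CPM) with SD (n = 3) of 12 genes of the acute-phase, cytokine receptor, lipopolysaccharide, metal and transcription factor lists in the mimetic, deficient, WT and vector lines. Cebpa, at 15.5 CPM in mimetic and 9.2 in deficient, has the order of lines seen for Cp, and Hnf4a, at 31.2 CPM in mimetic and 174 in vector, is highest in vector as Selenop is. Cebpb, Cebpd and Cebpg, which had other orders of lines, are not drawn, and neither is Ftl1, which had the order of Cp.

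Selenoproteins carry selenocysteine, read from a UGA codon, and selenoprotein P holds many such residues and serves as the transport form. The annotation gives Selenop 10 selenocysteine codons and at most 2 to any of the other 23 genes annotated with one. Of these other genes 18 were tested, and 8 rose and 3 fell in mimetic against vector, 6 rose and 4 fell in deficient, and 11 rose and 3 fell in WT. Of all tested genes, 28.6% were higher and 30.9% lower in mimetic, 28.4% and 29.8% in deficient, and 31% and 33.6% in WT. The median log2 fold changes of the 18 were 0.12, 0.05 and 0.20, against 0, 0 and -0.01 over all tested genes. Among the 18, the antioxidant peroxidase gene Gpx1 rose most, to 408 ± 4.6 CPM in mimetic, 346 ± 3.5 in deficient and 477 ± 2.6 in WT, against 232 ± 17 in vector (adjusted p = 2.4e-12, 6.64e-10 and 2.95e-14). Gpx4, which reduces lipid hydroperoxides, had 585 ± 2, 542 ± 20 and 597 ± 2.1 CPM in the same lines and 417 ± 15 in vector. Selenos, a protein of the endoplasmic reticulum, fell to 43.9 ± 1.5, 44.1 ± 3 and 33.8 ± 3.2 CPM against 59.2 ± 1.6.

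With each tested selenoprotein RNA weighted by its annotated selenocysteine codons, Selenop held 4.25% ± 0.19 of the codons in mimetic, 0.719% ± 0.144 in deficient and 0.851% ± 0.0527 in WT, against 45.4% ± 0.802 in vector (SD, n = 3 each). Deficient and WT overlapped in this share, at 0.57% to 0.857% and 0.795% to 0.9%, and no other lines did. The share is a description from RNA tags and an annotation, and no protein was measured.

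**Figure D4:**
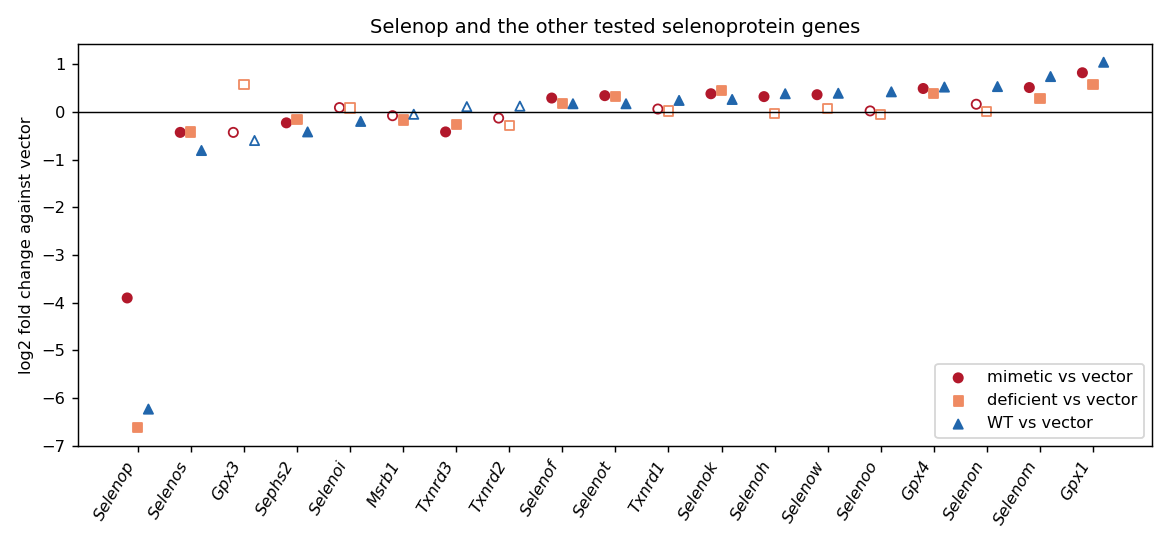
Log2 fold change against vector of Selenop and the 18 other tested selenoprotein genes in mimetic, deficient and WT. For the 18 genes filled symbols mark an adjusted p under 0.05 and open symbols do not; Selenop, drawn filled, has no test and lies at -3.90, -6.62 and -6.23, while Gpx1 lies at 0.82, 0.58 and 1.04.

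Genes of selenium uptake and selenocysteine synthesis were all tested (21 of 21), with 7 higher and 5 lower in mimetic than in vector, 6 and 6 in deficient, and 7 and 5 in WT (all genes: 59.5%, 58.2% and 64.6% called). Lrp2, the megalin receptor that takes up selenoprotein P in the kidney, rose to 2.4 ± 0.33 CPM in mimetic and 4.76 ± 0.97 in deficient, against 0.22 ± 0.058 in vector (adjusted p = 7.04e-08 and 7.12e-10), and was 0.375 ± 0.21 CPM in WT (adjusted p = 0.146). Lrp8, its receptor in brain and testis, had 46.1 ± 3.1 CPM in mimetic, 59.6 ± 3 in deficient, 65.3 ± 3 in WT and 67.3 ± 3.3 in vector, and was lower in mimetic than in deficient (adjusted p = 0.000143). Trnau1ap, a protein bound to the selenocysteine tRNA, rose in all 3 and most in WT, at 29.3 ± 1.9 CPM in mimetic, 29.8 ± 1.2 in deficient and 50.7 ± 1 in WT, against 25.6 ± 1.9 in vector.

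Transcription factors linked to these genes in liver, gut or hypoxia were tested for 21 of 32, and 5 rose and 10 fell in mimetic against vector, 5 and 10 in deficient, and 4 and 10 in WT. Of all tested genes, 28.6%, 28.4% and 31% were higher and 30.9%, 29.8% and 33.6% lower in these comparisons. Hnf4a, a nuclear receptor that drives hepatocyte and gut genes, fell to 31.2 ± 0.053 CPM in mimetic, 25.8 ± 2.1 in deficient and 4.19 ± 0.27 in WT, against 174 ± 5.6 in vector (adjusted p = 8.54e-18, 2.66e-18 and 1.11e-21). It was lowest in WT, and mimetic exceeded deficient by log2 0.28 (SE 0.06, adjusted p = 0.00247). Foxa1, a pioneer factor of liver and lung epithelium, had 34.5 ± 0.75 CPM in mimetic, 24.5 ± 3.4 in deficient, 25 ± 0.26 in WT and 21.8 ± 3.2 in vector, and was higher in mimetic than in deficient, WT and vector (adjusted p = 0.000623, 0.000541 and 6.15e-06). Hif1a, the hypoxia factor known to induce Cp, fell in mimetic and WT to 353 ± 6.9 and 326 ± 3.6 CPM, against 449 ± 13 in vector, and was 442 ± 19 CPM in deficient (adjusted p = 0.643). The intestinal factor Cdx2 had the order of lines of Selenop in a narrower range, at 49.5 ± 2.3 CPM in mimetic, 37.7 ± 2.5 in deficient, 43.6 ± 1.5 in WT and 57.8 ± 4.8 in vector.

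Between the mutant forms, 27.4% of all tested genes were called (12.6% higher and 14.9% lower in mimetic than in deficient). There 3 of 11 acute-phase genes were higher and 1 lower, and of 18 other selenoprotein genes 5 were higher and 0 lower. The 3 include C1ra (adjusted p = 0.0327) and the 5 include Gpx4 (adjusted p = 0.0412), and each of these calls was lost in 5 of 19 alternatives, with adjusted p up to 0.237 for C1ra and 0.143 for Gpx4. Against WT, 44.9% of all genes were called in mimetic (23.1% higher and 21.8% lower) and 53.8% in deficient (27.5% higher and 26.3% lower). Acute-phase genes were higher for 4 and lower for 2 in mimetic than in WT, and for deficient these counts were 4 and 3. Selenoprotein genes were higher for 5 and lower for 5 in mimetic than in WT, and for deficient the counts were 5 and 10. Some genes stand in 2 of the lists, Loxl2 and Lrp1 among them, and no list was tested as a set.

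Markers of other cell types also moved with the line. Of 15 hepatocyte markers 3 were listed (Hnf4a, Apoa1 and Apoh), summing to 31.6 to 31.7 CPM in mimetic, 23.8 to 28.1 in deficient and 4.27 to 4.61 in WT, against 171 to 182 in vector, nearly all of it Hnf4a, and albumin was not analysed here. Of 15 macrophage and leukocyte markers 3 were listed, mostly the mannose receptor Mrc1, at 102 to 113 CPM in mimetic, 118 to 128 in deficient and 90.2 to 93.1 in WT against 221 to 224 in vector. Of 15 fibroblast markers 5 were listed, mostly Fn1, at 860 to 965, 940 to 998 and 630 to 689 CPM in the same lines against 501 to 653 in vector. Of 15 alveolar type 2 and club cell markers 3 were listed, at 58.7 to 69.7, 63.5 to 71.3 and 62.9 to 67 CPM against 82.6 to 90.3 in vector. Of 10 endothelial markers 5 were listed, at 7.32 to 9.89, 9.8 to 11.8 and 3.88 to 4.13 CPM against 3.04 to 4.72 in vector. Their part in the levels of Cp, Lbp, Scara5 and Selenop was not tested, and in bulk RNA fewer cells that make an RNA and less RNA per cell cannot be told apart.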

How the data were processed

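The deposited file is 1 table of raw, unnormalised counts by gene, with a column per library. Per the labels' protocols the libraries were made with the QuantSeq 3' mRNA-Seq forward kit and sequenced paired-end, and per the submitters' processing notes STAR and mm10 were used. For the counting tool and annotation the sources used here name nothing. The table lists 12208 genes, and its smallest count is 1, so every listed gene has at least 1 count in each library. A gene without counts in any 1 library is not among them. The shares of tested genes and the numbers of list genes found do not cover such genes. Of the gene IDs, 12195 matched GENCODE M21 (GRCm38), the source of coordinates.

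Counts were filtered with filterByExpr (12027 genes left, 181 removed), scaled by TMM and fitted in edgeR 4.0.16 (R 4.3.3) by quasi-likelihood over all 12 libraries with a coefficient per line. The 6 pairs of lines were compared two-sided with Benjamini-Hochberg adjustment over all tested genes. A gene was called at an adjusted p under 0.05, and the standard error is the size of the log2 fold change divided by the square root of F. The procedure was tested on simulated data. No library was a copy of another: the chi-square per gene between replicates was 2.96 to 23.6.

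The 4 genes and the gene lists were chosen with earlier results of these data known. Named genes are the 4 genes, Zeb1, up to 4 genes per list and comparison with the smallest adjusted p, the 5 genes most correlated with each of the 4, and genes beside or overlapping them. Slc40a1, Cebpb, Cebpd and Cebpg were named outside this rule. Alternatives were DESeq2 1.42.0, RLE factors, library size only, no filter, at least 5 CPM in 3 libraries, only the 2 lines compared, a replicate block, and leaving out each library.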

Additional observations from a re-analysis of the deposited data

Results flagged for a closer look

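Each of 4 list genes was called at least 1.5-fold higher than vector in one Zeb1 line and at least 1.5-fold lower in another, with the lines themselves called apart in edgeR's quasi-likelihood test. The comparisons share the vector libraries. Itih2 differed by log2 3.15 between mimetic and WT (adjusted p = 4.99e-08), with 84 to 134 counts in the mimetic libraries and 13 to 18 in WT. The lipoprotein and scavenger receptor Lrp1 differed by -1.62 between deficient and WT (adjusted p = 1.78e-12), with 34.8 to 40.1 CPM in deficient, 109 to 118 in WT and 48.9 to 64.3 in vector. Stab1, a scavenger receptor of endothelium and macrophages, differed by 3.15 between deficient and WT (adjusted p = 4.52e-09), with 151 to 157 counts in deficient, 13 to 21 in WT and 67 to 96 in vector. The chemokine and scavenger receptor Cxcl16 differed from WT by 4.17 in mimetic and 4.79 in deficient (adjusted p = 6.64e-08 and 1.95e-09). WT held 9, 2 and 2 counts of it, so these sizes vary with the setting, from 3.72 to 5.27 and from 4.34 to 5.89. The call of Cxcl16 in mimetic against vector (log2 0.66, adjusted p = 0.0409) was lost without mimetic replicate 1, deficient replicate 2, vector replicate 1 or vector replicate 3 (adjusted p up to 0.178).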

How the results depend on the processing

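Under 19 alternatives, no log2 fold change of Cp, Lbp, Scara5 or Selenop changed sign, and 1 (Selenop in mimetic against vector, -3.82 by library size only) moved by more than the spread between replicates. Leaving out 1 library gave 0.19 to 0.27 for Cp, 0.49 to 0.68 for Lbp and 0.86 to 1.08 for Scara5 in mimetic against vector. Counts of called genes stayed within 1.5 times of the main ones. By library size only, the share of calls that were higher in mimetic was 59.1% (48% by TMM) against vector, 56.8% (45.8%) against deficient and 63.9% (51.5%) against WT. Among the values with the smallest adjusted p in each list and comparison, 206 called ones of genes chosen for naming were followed. Of these 206, 2 lost their call under some alternative. Other called values of list genes were not all followed, and Cxcl16 in mimetic against vector lost its call in 4 settings. C1ra in mimetic against deficient (edgeR adjusted p = 0.0327) lost it with only the 2 lines compared and without mimetic replicate 2 or 3 or deficient replicate 1 or 2 (adjusted p = 0.061 to 0.237). Gpx4 there (adjusted p = 0.0412) lost it without any 1 of the mimetic libraries or deficient replicate 1 or 3 (adjusted p = 0.0686 to 0.143). The labels do not say that a replicate number is shared between lines, and the main fit used no pairing. Deviations of same-numbered libraries correlated from -0.183 to 0.454, and no comparison was over 0.1 in all 3 pairs. In WT against vector all 6 libraries matched their own number best, and in mimetic against deficient 4 of 6 did. In the other comparisons 0 to 2 of 6 did. Whether these lines were handled in pairs was not tested. With the replicate block, 7250 genes were called in mimetic against vector, against 7158 without. Depth limits Lbp, Scara5 and Selenop in deficient and WT, at 43 to 179 counts a library.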
